A study of Rattus norvegicus with 6 samples.

Results

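MicroRNAs (miRNAs) are cut from a hairpin-shaped precursor, and each hairpin can give a mature strand from its 5′ arm (5p) and another from its 3′ arm (3p). The strands described here are rno-miR-338-3p, rno-miR-338-5p, rno-miR-345-5p and rno-miR-345-3p, 4 of the 758 rat miRNAs on the array. They were chosen by name, because the 3p and 5p strands of each hairpin were already known to differ in their shift between the diets on these arrays. Their diet differences and strand ratios are therefore given as descriptions with no test. The array data come from left ventricular myocardium, the muscle of the main pumping chamber of the heart, of male Wistar rats. Of the 6 samples, 3 came from rats on a high-fat diet for 20 weeks, which the sample titles call obesity, and 3 from rats on normal chow for the same time. Wistar is an outbred laboratory strain, and both groups were untreated apart from the diet, as far as the labels say. Total RNA of each sample was labelled with Cy3 and hybridised to 1 single-colour Agilent array. Whether each sample was a different rat is not given in the labels, and the spread within a diet may therefore be partly technical.

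Both strands of a hairpin leave the precursor as a duplex, from which one strand, the guide, is usually kept by an Argonaute protein while its partner, the passenger strand, is mostly degraded. The guide pairs with messenger RNAs mainly through its seed, bases 2 to 8, and lowers their output. The hairpin of miR-338 lies in an intron of Aatk, which encodes a kinase of the nervous system, and in mice miR-338 is known with miR-219 for promoting the maturation of oligodendrocytes, the myelin-forming cells of the brain. miR-345 is best known from studies of human tumours, and no function in heart muscle is assumed here.

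The mature sequences are shown because each strand has its own seed and so its own set of possible targets. All 4 names matched RefSeq's rat miRNA table (build GRCr8), as did 685 of the 758 array miRNAs. Capitals mark the seed, read 5′ to 3′.
rno-miR-338-3p: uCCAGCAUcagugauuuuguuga
rno-miR-338-5p: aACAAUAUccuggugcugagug
rno-miR-345-5p: uGCUGACCccuaguccagugc
rno-miR-345-3p: cCCUGAACuaggggucuggaga
The 4 seeds differ from each other, and 0 other rat miRNAs of the table share any of them. miR-338-3p and miR-345-5p begin with U, as 36.2% of the matched array miRNAs do, while miR-338-5p begins with A (29.6%) and miR-345-3p with C (21.6%). The miR-338 strands hold 39.1% (3p) and 45.5% (5p) G and C, and those of miR-345 hold 59.1% (3p) and 61.9% (5p), against a median of 47.8% over the matched array miRNAs.

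The hairpins show which arm each strand comes from, with the mature strands in capitals.
Mir338: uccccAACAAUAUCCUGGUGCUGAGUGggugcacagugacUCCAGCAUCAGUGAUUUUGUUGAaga
Mir345: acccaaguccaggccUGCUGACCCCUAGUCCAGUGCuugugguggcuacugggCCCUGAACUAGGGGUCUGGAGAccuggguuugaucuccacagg
The miR-338 hairpin of 66 bases lies on the minus strand at chr10:105796342-105796407 (GRCr8), inside Aatk, which runs on the same strand. The miR-345 hairpin of 96 bases lies on the plus strand at chr6:133518403-133518498. In this annotation it is spanned by the long non-coding RNA gene LOC134479257 on the same strand and lies outside Slc25a29, a mitochondrial carrier gene within 10 kb on the minus strand. miR-345 was listed as intronic when the strands were chosen, and no protein-coding gene of this annotation spans it. The gene table gives no exons, so exonic and intronic positions were not told apart.

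A further miRNA gene, Mir3065, covers the miR-338 hairpin on the opposite strand. The 20 bases that miR-338-3p shares with miR-3065-5p, and the 19 that miR-338-5p shares with miR-3065-3p, are fully complementary. These antisense strands are shown with their seeds in capitals because the array measures them beside miR-338.
rno-miR-3065-5p: uCAACAAAaucacugaugcu
rno-miR-3065-3p: uCAGCACCaggauauuguugggga

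Signals are given as processed fluorescence intensity and, for comparison between arrays, relative to the array's 75th percentile of signal, on the log2 scale. A probe was well above background on an array when a share of at least 0.5 of its spots carried the scanner software's flag for it, and 425 of the 758 miRNAs reached this on at least 3 arrays and were compared between diets. The 75th percentile was 415, 532 and 561 on high-fat arrays 1, 2 and 3, and 359, 424 and 376 on chow arrays 1, 2 and 3, so the high-fat arrays were brighter in general, although high-fat array 1 lay below chow array 2. Correlations between arrays across miRNAs were 0.990 to 0.996. Slide 1 held the 3 high-fat arrays and chow array 1, and slide 2 held chow arrays 2 and 3. A hybridisation quality value of the scanner, the stringency spike-in ratio, was 0.974 to 1.94 on high-fat and 3.44 to 4.19 on chow arrays. These ranges do not overlap, so this value cannot be told apart from the diet in the differences and ratios below. The 6 heart muscle markers, among them miR-1-3p, miR-133a-3p and miR-208a-3p, were each well above background on 6 arrays, and the liver marker miR-122-5p on 0. The skeletal muscle marker miR-206-3p and the neuronal miR-124-3p also reached 6 arrays, so detection alone does not tell these tissues apart. Their signals were lower, at 55.9 and 44.1 on high-fat array 1, against 53462 for miR-1-3p and 222 for the dimmest heart muscle marker, miR-208b-3p.

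On the scaled signal miR-338-3p was higher, and miR-345-5p lower, in the high-fat hearts, and their partner strands differed less, with a sign that turned without scaling. Scaled, miR-338-3p differed by 0.45 ± 0.14 (log2, high-fat minus chow, moderated SE from limma), miR-338-5p by -0.18 ± 0.10, miR-345-5p by -0.55 ± 0.11 and miR-345-3p by -0.18 ± 0.09. The median over the 425 tested miRNAs was -0.04. On this scale each of the 4 strands had high-fat arrays that did not overlap its chow arrays, as did 17.2% of the 425 miRNAs (6.59% with the high-fat arrays above and 10.6% with them below). Because the strands were chosen on this contrast, nothing is read from their count. limma called 2 of the 425 (0.471%) at an adjusted p under 0.05, namely miR-141-3p, which rose, and miR-224-3p, which fell. The split of calls into higher and lower was 4 and 1 with no scaling, and 2 and 1 with median scaling, the 75th percentile over all probes or normexp with quantile normalization.

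The processed signal of miR-338-3p was 446, 671 and 864 on high-fat arrays 1, 2 and 3, against 350, 410 and 327 on chow arrays 1, 2 and 3. Relative to the 75th percentile this was 1.08, 1.26 and 1.54 on the high-fat diet and 0.974, 0.966 and 0.869 on chow. The high-fat arrays all lay above the chow arrays, with high-fat array 3 highest and high-fat array 1 close to the chow arrays, at a gap of 0.14 on the log2 scale. High-fat arrays averaged 0.35 ± 0.26 and chow arrays -0.10 ± 0.09 in log2 signal (SD, n = 3 each), a 1.37-fold higher level. Most of the spread was among the high-fat samples. The difference was 0.32 without high-fat array 3 and 0.58 without high-fat array 1.

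miR-338-5p, the strand of the other arm, gave a signal of 950, 1183 and 1213 on high-fat arrays 1, 2 and 3, against 984, 1043 and 899 on chow arrays 1, 2 and 3. These unscaled values overlapped. Relative to the 75th percentile they were 2.29, 2.23 and 2.16 on the high-fat diet and 2.74, 2.46 and 2.39 on chow, so the scaled arrays separated by 0.06 on the log2 scale. High-fat arrays averaged 1.15 ± 0.04 and chow arrays 1.34 ± 0.10 in log2 signal (SD, n = 3 each). The direction of this strand depended on the scaling, since the difference was 0.19 with no scaling between arrays, a setting in which the median of all tested miRNAs was 0.32.

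miR-345-5p had a signal of 897, 1063 and 1016 on high-fat arrays 1, 2 and 3, against 1063, 1139 and 1163 on chow arrays 1, 2 and 3. The unscaled signal thus differed little, and high-fat array 2 and chow array 1 were alike. Relative to the brightness of each array the values were 2.16, 2.00 and 1.81 on the high-fat diet and 2.96, 2.68 and 3.09 on chow, which separated the diets by 0.31 on the log2 scale. High-fat arrays averaged 0.99 ± 0.13 and chow arrays 1.54 ± 0.10 in log2 signal (SD, n = 3 each), a 1.46-fold lower level on the high-fat diet. With no scaling the difference was -0.18 and the arrays overlapped.

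miR-345-3p was dimmer, with a signal of 128, 172 and 174 on high-fat arrays 1, 2 and 3, against 137, 147 and 129 on chow arrays 1, 2 and 3. Scaled, it stood at 0.310, 0.323 and 0.311 on the high-fat diet and 0.382, 0.346 and 0.343 on chow. The scaled groups did not overlap, at a gap of 0.09 on the log2 scale, and the log2 means were -1.67 ± 0.03 for the high-fat diet against -1.49 ± 0.09 for chow (SD, n = 3 each). As for miR-338-5p, the sign depended on the scaling, and the difference was 0.19 with none.

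**Figure D1:**
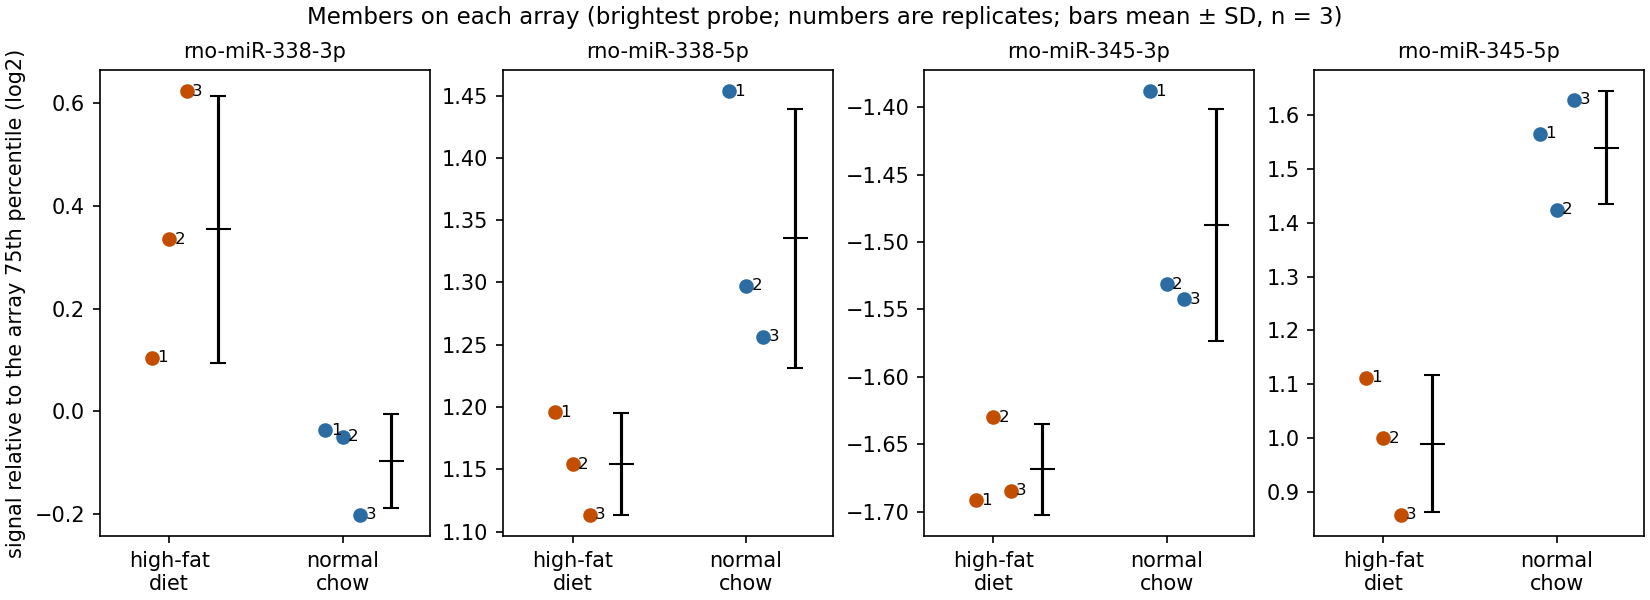
Signal relative to the array's 75th percentile (log2 axis values, a separate range per panel) for the brightest probe of each strand on each array, high-fat diet left and normal chow right; points are arrays, numbers are replicates, bars are mean ± SD. miR-338-3p averaged 0.35 on high-fat and -0.10 on chow arrays, and miR-345-5p averaged 0.99 on high-fat and 1.54 on chow arrays.

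Each strand was read by several probes, which share the sample and the array and are not replicates of the diet. The 12 probes of the 4 strands were all well above background on all 6 arrays. Both probes of miR-338-3p differed upwards, by 0.45 and 0.41, and both probes of miR-345-5p downwards, by -0.55 and -0.54. The 4 probes of miR-338-5p differed by -0.25 to -0.12 and the 4 of miR-345-3p by -0.18 to -0.05, so all probes of a strand had the same sign on the scaled signal. Of the 12, 9 had diets that did not overlap when scaled, against 17.8% of the 757 array probes that all 6 arrays detected. Unscaled, 3 of the 12 did not overlap, against 24.6% of the 757, and as the strands were chosen on this contrast nothing is read from these counts. The 3 were both probes of miR-338-3p and probe A_26_P00001977 of miR-338-5p.

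The probes of miR-338-5p differed widely in brightness. Probe A_26_P00001976, used above, averaged 1116 on high-fat and 975 on chow arrays, while the other 3 averaged 37.3 to 69.9 on high-fat and 34.2 to 58.9 on chow arrays. Which of them reports the amount of the strand best is not given in the sources used here. Replicate spots of a probe on an array varied by a median coefficient of variation of 3.54% for miR-338-3p, 6.58% for miR-338-5p, 2.64% for miR-345-5p and 4.84% for miR-345-3p, with single values up to 21.8% (miR-338-5p).

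**Figure D2:**
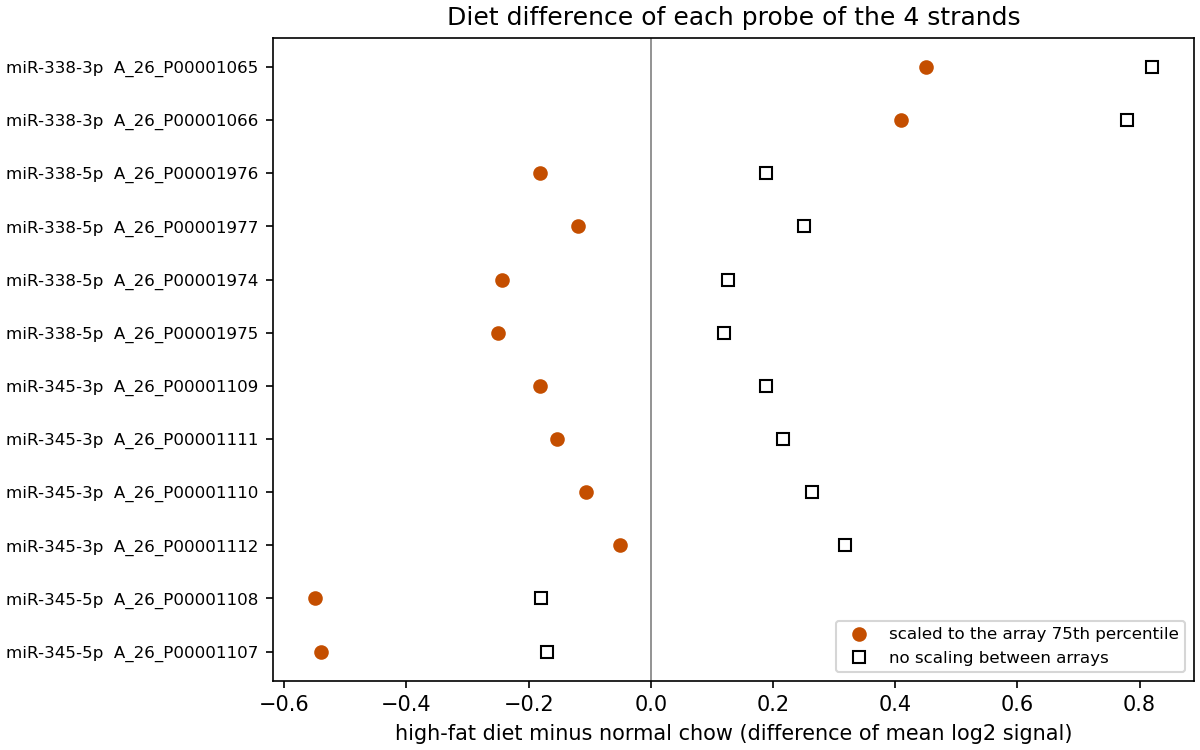
Diet difference (high-fat minus chow, in log2 signal) of each of the 12 probes, with filled circles for signal scaled to the array's 75th percentile and open squares for unscaled signal. Scaled differences run from -0.55 to 0.45 and unscaled ones from -0.18 to 0.82; the 8 probes of miR-338-5p and miR-345-3p cross 0 between the settings.

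The 5p to 3p ratio on one array does not change with the scaling of that array, since both strands are divided by the same value. Its level depends on the 2 probes and is not a ratio of molecules, so only its change between arrays is described. For miR-338 the log2 of 5p over 3p was 1.09, 0.82 and 0.49 on high-fat arrays 1, 2 and 3, against 1.49, 1.35 and 1.46 on chow arrays 1, 2 and 3. The diets did not overlap, and the chow arrays lay close together while the high-fat arrays spread widely. High-fat arrays averaged 0.80 ± 0.30 and chow arrays 1.43 ± 0.08 (SD, n = 3 each), a shift of -0.63 towards the 3p strand, or a ratio 1.55-fold lower on the high-fat diet.

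For miR-345 the log2 of 5p over 3p was 2.80, 2.63 and 2.54 on high-fat arrays 1, 2 and 3, against 2.95, 2.96 and 3.17 on chow arrays 1, 2 and 3. These groups did not overlap either, with a gap of 0.15. High-fat arrays averaged 2.66 ± 0.13 and chow arrays 3.03 ± 0.12 (SD, n = 3 each), a shift of -0.37 towards the 3p strand, or a ratio 1.29-fold lower on the high-fat diet. Both hairpins thus had relatively more 3p signal on the high-fat diet. On the scaled signal the larger difference was that of the 3p strand in miR-338 and of the 5p strand in miR-345, where with no scaling the 2 strands were of similar size and opposite sign (-0.18 for 5p and 0.19 for 3p).

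**Figure D3:**
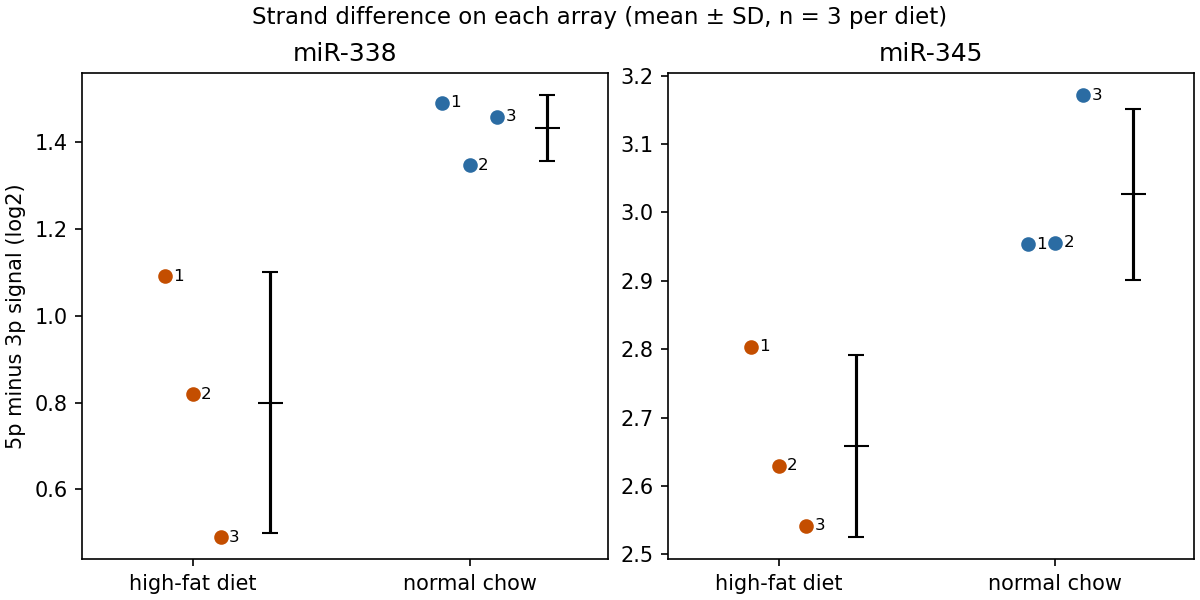
Log2 of 5p over 3p signal for miR-338 and miR-345 on each array (a separate range per panel), high-fat diet left and normal chow right; points are arrays, numbers are replicates, bars are mean ± SD. The means are 0.80 on high-fat and 1.43 on chow arrays for miR-338, and 2.66 on high-fat and 3.03 on chow arrays for miR-345.

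The choice of probe did not change the direction of either shift. Over the 8 combinations of a 5p and a 3p probe of miR-338 the shift ranged from -0.70 to -0.53, and over the 8 combinations of miR-345 from -0.50 to -0.36. In all 8 combinations of each hairpin the high-fat arrays lay below the chow arrays. The combinations share probes and are not separate checks, and their signs follow from the differences of the single probes given above. Within slide 1, against its only chow array, the shift was -0.69 for miR-338 and -0.30 for miR-345, and the same values resulted with slide as a block. Slide 2 had no high-fat array, so no value came from it.

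Array brightness moved with these ratios. Ordered by their 75th percentile, chow arrays 1 and 3 were dimmest and had log2 ratios of 1.49 and 1.46 for miR-338. High-fat array 1 and chow array 2 were of similar brightness (415 and 424) and had 1.09 and 1.35. High-fat arrays 2 and 3 were brightest and had the lowest ratios. For miR-345, the pair of similar brightness gave 2.80 on high-fat array 1 and 2.96 on chow array 2. The parts of brightness and of the stringency spike-in ratio, which split fully by diet, in the shifts were not tested.

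**Figure D4:**
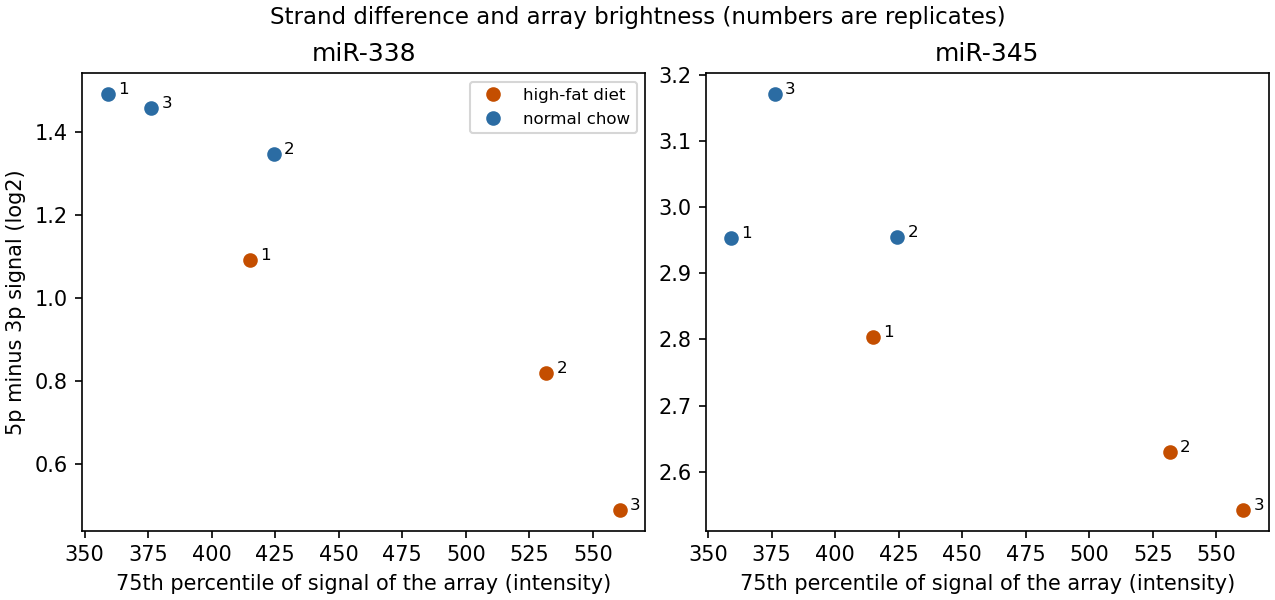
Log2 of 5p over 3p signal against the 75th percentile of signal of the array (intensity) for miR-338 and miR-345; points are arrays coloured by diet, with replicate numbers. The brightest arrays, high-fat 2 and 3, have the lowest ratios, at 0.82 and 0.49 for miR-338 and 2.63 and 2.54 for miR-345.

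Of the 281 hairpins with both strands on the array, 102 had both strands tested. Their median strand shift was 0.02, the lower and upper quartiles were -0.11 and 0.17, and the whole range was -0.69 to 1.00. The high-fat arrays lay below the chow arrays in 7.84% of the 102 pairs and above them in the same share. limma called 0 of the 102 shifts (0%) at an adjusted p under 0.05, and 9 had an unadjusted p under 0.05. The shift of miR-338 was second from the low end and that of miR-345 was ninth from it.

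The 3 lowest shifts belonged to miR-144, an erythroid miRNA (-0.69), miR-338 and miR-26b (-0.53). The 3 highest were those of miR-764 (1.00, with overlapping diets), miR-18a of the miR-17-92 cluster (0.76) and miR-503 (0.45). Both strands were well above background on all 6 arrays in 81 of the 102 pairs, but not in miR-764, miR-26b and miR-503. miR-764-3p lay close to the floor of -5.82, with log2 means of -5.60 on high-fat and -5.35 on chow arrays. On the scaled signal the strands differed in opposite directions in 36 of the 102 pairs (35.3%), miR-338 among them, and in 7 (6.86%) with no scaling. Unscaled, both strands of miR-338 were higher (0.19 for 5p and 0.82 for 3p), while those of miR-345, both lower when scaled, stood at -0.18 (5p) and 0.19 (3p). Of 15 other miRNAs known to lie in introns of host genes, 6 had both strands tested. Their median shift was -0.13, from -0.53 for miR-26b to 0.40 for miR-33, which lies in Srebf2, a gene of sterol control. limma called 0 of these 6.

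**Figure D5:**
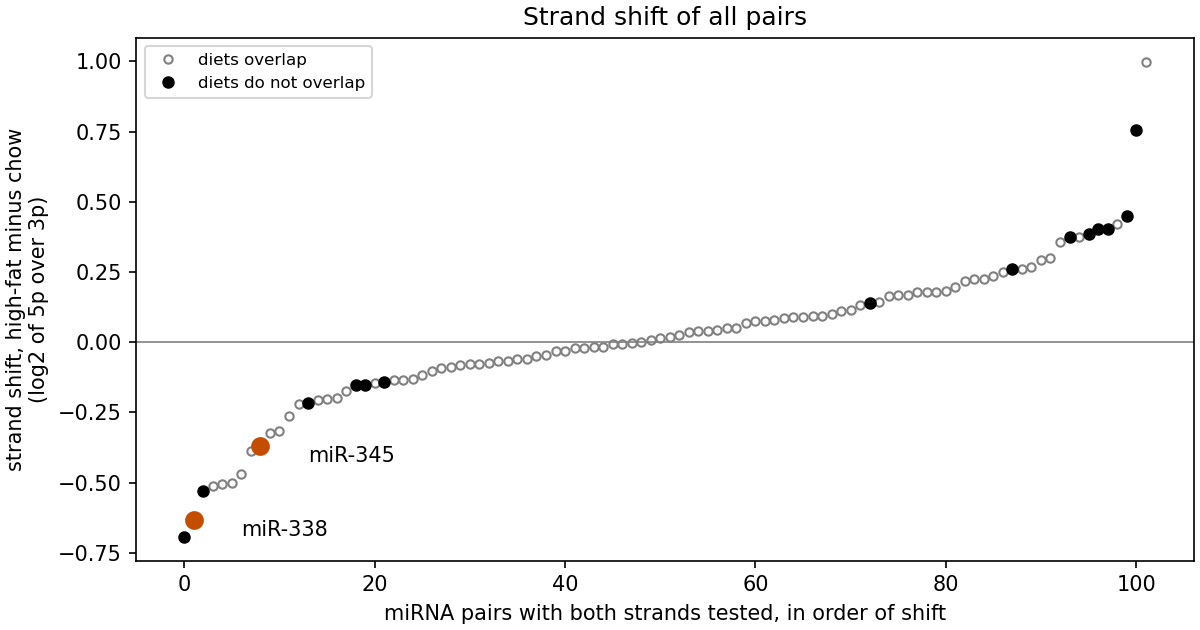
Strand shift (log2 of 5p over 3p, high-fat diet minus normal chow) of the 102 miRNA pairs in order of size, with filled points where the diets do not overlap and the hairpins of interest in orange. miR-338 lies at -0.63 and miR-345 at -0.37, in a range of -0.69 to 1.00.

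The antisense miR-3065-3p gave a signal of 35.5, 47.0 and 55.6 on high-fat arrays 1, 2 and 3, against 35.0, 43.6 and 32.3 on chow arrays 1, 2 and 3. Scaled, it differed by -0.06 ± 0.11 (log2, SE) and the diets overlapped. Its partner miR-3065-5p, which is complementary to miR-338-3p, was well above background on 0 of the 6 arrays, so its diets could not be compared.

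The miRNAs whose scaled signal over the 6 arrays was most like that of each strand were found by Pearson's r, which includes the difference between the diets and is given as a description. Nearest to miR-338-3p were miR-451-5p (r = 0.97), made with miR-144 from an erythroid gene, miR-221-3p (0.92), miR-144-3p (0.91), miR-18a-5p (0.91) and miR-1188-5p (0.91). Nearest to miR-345-5p were miR-133a-3p, one of the main miRNAs of striated muscle (r = 0.98), miR-22-5p (0.98), miR-224-3p (0.95), miR-181c-3p (0.93) and miR-193b-3p (0.93). miR-338-5p and miR-345-3p had miR-299b-3p first (r = 0.98 for both), and they shared miR-374-5p, miR-181c-3p and miR-6315. With each other, miR-338-5p and miR-345-3p correlated at r = 0.95, above the 0.94 of miR-181c-3p with miR-345-3p. The remaining neighbours were let-7g-3p for miR-338-5p (0.97) and miR-18a-3p for miR-345-3p (0.96).

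The summed scaled signal of the 5 blood miRNAs listed, like that of miR-338-3p, was higher on the high-fat arrays. It was 20.2 to 27.2 on high-fat and 15.7 to 16.5 on chow arrays, with all 5 detected on the 6 arrays. Within that list miR-144-3p differed by 1.30 ± 0.22 and miR-451-5p by 0.57 ± 0.17, with diets that did not overlap. Of all 425 tested miRNAs, 6.59% were higher in this way. The diets overlapped for miR-223-3p (0.25), miR-142-3p (0.12) and miR-486 (0.01). limma called 0 of the 5 on this scale, 1 with no scaling, median scaling or the 75th percentile over all probes, and 2 with the 75th percentile after normexp background correction. For this list the median of 0.25 kept its sign under the 7 scalings tried. The part of blood cells in the level of miR-338-3p was not tested.

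The summed scaled signal of the 6 heart muscle miRNAs was lower on the high-fat arrays, as that of miR-345-5p was. It was 316 to 404 on high-fat and 429 to 455 on chow arrays. These sums mostly follow the brightest of the list, miR-133b-3p and miR-1-3p. Their signals were 84463 and 53462 on high-fat array 1, where the dimmest, miR-208b-3p, gave 222. The diets overlapped for miR-1-3p (-0.22) and miR-208a-3p (-0.04). The 6 listed had a median difference of -0.29, and the diets did not overlap, all lower, for miR-133a-3p (-0.37), miR-133b-3p (-0.43), miR-208b-3p (-0.97) and miR-499-5p (-0.19), beside the 10.6% of all 425 that were lower in this way. miR-133b-3p and miR-499-5p overlapped with median scaling, the 75th percentile over all probes and quantile normalization. The median was -0.08 with quantile normalization, where 4 of the 6 were lower. Quantile normalization gives the brightest probe the same value on every array. The difference of 0 and the overlap of miR-133b-3p under it were thus fixed in advance. limma called 0 of the 6, and 1 with normexp and the 75th percentile. With no scaling the median turned to 0.08, and all 4 had overlapping diets. There miR-133b-3p and miR-1-3p, which the sums mostly follow, differed by -0.06 and 0.15, both with overlapping diets. The sums were computed on the scaled signal alone. In whole tissue, fewer cells of a type and less RNA per cell cannot be told apart, and the part of either in miR-345-5p was not tested.

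miRNAs of the nervous system and of myelinating glia, where miR-338 is best known, were also listed. Of the 14, 11 were tested, limma called 0 in either direction, and their median difference was 0.06, against -0.04 over all 425. It was -0.14 with normexp and the 75th percentile, and 0.43 with no scaling, where all 11 were higher and the median of all tested was 0.32. The largest differences were those of miR-124-3p, the main neuronal miRNA (-0.35 ± 0.24), miR-219a-5p, the glial partner of miR-338 in mice (0.32 ± 0.18), and miR-7a-5p (0.23 ± 0.18), each with overlapping diets. The diets did not overlap for miR-128-3p (0.20), miR-218a-5p (0.19) and miR-212-3p (-0.20), beside 17.2% of all 425 in either direction. All 3 overlapped with the 75th percentile over all probes, and miR-212-3p turned to 0.17 with no scaling. miR-219a-2-3p and miR-129-5p were well above background on 0 arrays. The 8 markers of this cell type had a summed scaled signal of 1.94 to 2.14 on high-fat and 1.82 to 1.92 on chow arrays over the 7 tested. Most of this sum was miR-128-3p, with a signal of 534 on high-fat array 1, where the next brightest, miR-219a-5p, gave 101. Of the 7, 3 were higher and 4 lower, with a median difference of -0.002, so they did not rise together. The part of these markers in miR-338-3p was not tested.

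Near miR-345 in other mammals lies the imprinted Dlk1-Dio3 cluster, which carries one of the largest groups of miRNA genes. Of 23 of its strands listed, 10 were tested and 11 were well above background on 0 arrays. limma called 0 of the 10 in either direction, and their median difference was -0.19, which turned to 0.18 with no scaling. The largest differences were those of miR-127-3p (-0.47 ± 0.22), miR-431 (-0.32 ± 0.14) and miR-493-5p (-0.27 ± 0.12). Of these miR-493-5p alone had diets that did not overlap, beside the 10.6% of all 425 that were lower in this way.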

How the data were processed

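Left ventricular RNA of 3 high-fat and 3 chow samples was measured on 1 array each. Spot intensity values on a linear scale were made by the authors with Agilent Feature Extraction 11.0.1.1, per the file headers (the submitters' processing notes give the same version), with background subtraction and spatial detrending per array and no scaling between arrays. The authors' deposited table holds log2 values with a median of 3.54 on every array, and they follow the software's total signal (r = 0.975 to 0.999). Median, upper quartile and maximum are equal on all arrays, while the lowest values differ. When each array is ranked, 411 of the 780 values are equal on all arrays, as quantile normalization makes them. How the values were scaled is not stated in the sources used here. The deposited table was used as an alternative.

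Spots with an outlier flag (9.07% to 9.42%) were left out, and 0 were saturated. Spots of a probe were averaged, divided by the array's 75th percentile over probes well above background on all 6 arrays, set to a floor (log2 of -5.82) and taken to log2. The brightest probe stood for a miRNA. The diets were compared over all miRNAs and all strand pairs with limma 3.58.1 in R 4.3.3 (lmFit, eBayes, Benjamini-Hochberg adjustment, threshold 0.05), tested first on simulated data. Sequences are RefSeq's. The number of arrays limits the precision. The strands, lists and alternatives were chosen with earlier results of these data known. Named are the 4 strands, the 5 miRNAs outside them nearest to each by r, and antisense neighbours. The 3 extreme strand pairs per direction and the 3 largest differences per list are also named. Named after their values were seen were the 2 miRNAs called, miR-33, undetected list members and marker miRNAs beyond that rule. The scalings of the lists were added after seeing the data. Alternatives are given in the closing section.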

Additional observations from a re-analysis of the deposited data

How the results depend on the processing

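The strand shifts kept their sign under all 21 alternatives computed for them: -0.78 to -0.48 for miR-338 and -0.44 to -0.30 for miR-345, the same ranges, to 2 decimals, as with each array left out (-0.78 to -0.48 and -0.44 to -0.30). So did the differences of miR-338-3p (0.32 to 0.82) and miR-345-5p (-0.64 to -0.18). Many of these alternatives could not turn a sign. The strand shifts cannot change with no scaling, median scaling or the 75th percentile over all probes, and did not with the higher floor. Leaving out arrays, or keeping slide 1 alone, cannot reverse a difference whose diets do not overlap. Slide as a block gave the same values as slide 1 alone. With no scaling, miR-338-5p and miR-345-3p reversed, to 0.19 each. The diets stayed apart in 21 of 21 alternatives for miR-338-3p, 20 for miR-345-5p, 16 for miR-338-5p and 17 for miR-345-3p. This was fixed in advance with an array left out, within slide 1 and with either block. There the array values compared were those of the main setting. These alternatives are included in the counts and raise them, but they carry no information. The higher floor also left the differences of the strands unchanged. The diets of miR-338-5p and miR-345-3p overlapped with no scaling and in the authors' deposited table. miR-338-5p also overlapped with normexp and quantile normalization, the 75th percentile over all probes and its second brightest probe, miR-345-3p with median scaling and the mean over probes, and miR-345-5p with no scaling. The number of miRNAs called by limma, 2 of 425, was 8 with normexp and the 75th percentile and 5 with no scaling. It was 1 with the mean over probes or outlier spots kept. It was 0 with quantile normalization, the authors' deposited table, a floor 4 times higher, no filter, slide as a block and within slide 1, and 0 to 3 with each array left out. Where it was 0, 36 to 63 miRNAs had an unadjusted p under 0.05. For strand pairs the count was 0 to 1 with an array left out, miR-18a being called without chow array 2. With the replicate block 3 miRNAs and 0 pairs were called (the block for pairs was chosen after seeing the data). Whether the replicate numbers pair the samples is not given in the labels. The deviations of same-numbered arrays correlated at 0.22, -0.01 and 0.06, and those of differently numbered arrays at -0.20 to 0.13. So few arrays cannot decide whether the samples were paired. With 1 array of each diet per number, the block cannot change a mean difference, so the shifts of -0.63 and -0.37 under it carry no information. Normexp used median spot signals, since the files used here gave no mean.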
